A study of Mus musculus with 18 samples.

Results

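Colony-stimulating factors are secreted proteins that control how many macrophages, granulocytes and dendritic cells (DCs) are made from marrow precursors and how long they live. M-CSF, encoded by *Csf1*, acts through the receptor tyrosine kinase encoded by *Csf1r*. GM-CSF, encoded by *Csf2*, is bound by an α chain (*Csf2ra*) that pairs with a signalling β chain (*Csf2rb*) and activates JAK2 and STAT5. G-CSF, encoded by *Csf3*, acts through a receptor (*Csf3r*) that activates STAT3 and drives neutrophil output, and *Flt3* encodes the receptor tyrosine kinase of FLT3 ligand, on which DC precursors depend in vivo. Macrophages and DCs can make these ligands when they sense microbial products. These 8 genes were taken by symbol from a table of normalized counts, each symbol matched 1 entry, and they make up 8 of its 62197 genes.

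The libraries are bulk, polyadenylated RNA-seq of mouse DCs grown from bone marrow for 10 days. The protocol names a pair of library kits without saying which libraries used which, so an effect of the kit on any group difference could not be checked. The culture medium contained GM-CSF from the supernatant of transfected J558 cells, so every group had been exposed to the added GM-CSF protein, and the values here are mRNA made by the cells. Marrow came from mice aged 6 to 8 weeks on a C57BL/6 background, male or female. cPLA_2_ KO cells carry *Pla2g4a* alleles flanked by loxP sites and an *Itgax*-*cre* transgene, whose Cre follows the CD11c promoter and so need not act in cells of the culture that lack CD11c. cPLA_2_ WT cells are the controls. Cells of each genotype were left nonconfined and taken directly when the culture ended, were confined to 3 µm and taken 4 h later, or received 100 ng/ml LPS for 30 min, were washed and were taken the next day. The methods give a slightly shorter LPS exposure than the labels, and the treatment protocol of all 18 libraries names LPS, whereas titles name it for the LPS groups alone. The titles were followed, and if the protocol held for other libraries their values would mean something else. Each of these 6 groups has 3 libraries, called biological replicates, and the labels do not say which mice or cultures they came from. Because LPS libraries were taken a day later than nonconfined ones, the effects of LPS and of the added day cannot be told apart. Confined cells were taken 4 h later than nonconfined ones, so the effects of confinement and of the added 4 h cannot be told apart either. Whole reads could be recovered from the table, and the 18 libraries held 33027230 to 61300021 reads on genes, with a median of 40950398. LPS libraries labelled cPLA_2_ WT were the deepest, with 52116837 to 61300021 reads, and confined cPLA_2_ KO libraries held 33027230 to 39400286.

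The targeted gene was lowered but still present. *Pla2g4a*, which encodes cPLA_2_, stood at 697, 686 and 770.4 normalized counts in the nonconfined cPLA_2_ WT libraries and at 548, 542 and 533 in the nonconfined cPLA_2_ KO libraries. Confined cPLA_2_ WT libraries had 1369, 1430.3 and 1321 normalized counts of *Pla2g4a*, and confined cPLA_2_ KO libraries had 923, 871 and 919.5. No value overlapped between genotypes in either treatment. The Y-chromosome gene *Ddx3y* separated the same libraries, with 0 to 3.05 normalized counts in the 6 cPLA_2_ WT libraries and 874 to 1036 in the 6 cPLA_2_ KO libraries, while *Xist* averaged 30772 normalized counts in nonconfined cPLA_2_ WT and 15188 in nonconfined cPLA_2_ KO cells. Genotype and the sex of the donors therefore cannot be told apart. The 6 cPLA_2_ KO libraries held *Xist* beside *Ddx3y*, at 12153 to 24835 normalized counts, and the mix of donors in a library was not tested.

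The LPS libraries did not follow their genotype labels in these genes. *Pla2g4a* stood at 1005, 969 and 967 normalized counts in those labelled cPLA_2_ WT and at 1065, 1032 and 1028 in those labelled cPLA_2_ KO. *Ddx3y* stood at 1271, 0 and 662 normalized counts in the former and at 2.12, 1476 and 783 in the latter, so both labels held libraries with and without this Y-chromosome transcript. Between the labels, limma called 0 of 17875 genes at a Benjamini-Hochberg adjusted p under 0.05, which is 0% in either direction and 0 of the 8 family members. At an adjusted p, edgeR and DESeq2 each called 0 genes too, and limma gave 890 at an unadjusted p under 0.05. LPS values are therefore given by label and also pooled over the 6 libraries, and no effect of cPLA_2_ under LPS is read from them. Libraries also matched across labels. Sums of 6 eosinophil markers were 43969, 25589 and 35214 under the label cPLA_2_ WT. Replicates 2, 1 and 3 of the label cPLA_2_ KO had 43976, 25523 and 35822, and *Ddx3y* matched in the same way. Whether matched libraries share a source was not tested. If they do, pooled tests hold fewer independent libraries than 6 and their p-values are too small.

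The culture carried DC transcripts in every group. *Cd74* and *Itgax*, the gene of CD11c, averaged 240600 and 6281 normalized counts in nonconfined cPLA_2_ WT cells, and all 12 DC markers listed were measured. It also carried transcripts of other myeloid cells. The 10 neutrophil markers summed to 254817 to 259688 normalized counts in nonconfined cPLA_2_ WT libraries and to 354451 to 390204 in nonconfined cPLA_2_ KO libraries, with *S100a9* the most abundant, and none of the 10 was at 0 in any library. In bulk samples, fewer cells of a type and less RNA per cell cannot be told apart, and this holds for each change below.

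Changes were tested on log2(normalized count + 1) with limma in 1 fit over the 18 libraries, and p-values were adjusted over the 17875 genes that reached 10 normalized counts in 3 or more libraries. A gene past the test has an adjusted p under 0.05. All 8 members were tested, *Csf2* and *Csf3* only through libraries of stimulated cells, in which they were high. With confinement of cPLA_2_ WT cells, 5 members were higher (*Csf3*, *Csf2*, *Csf1*, *Csf2rb* and *Csf2ra*), 1 was lower (*Flt3*) and 2 were not past the test (*Csf1r* and *Csf3r*), where 28.2% of all genes tested were higher and 28.4% lower. With confinement of cPLA_2_ KO cells, the same 5 were higher, *Flt3* and *Csf3r* were lower and *Csf1r* was not past the test, where 22.8% of genes were higher and 23.4% lower. Over the members the median log2 change was 0.19 for cPLA_2_ WT and 0.38 for cPLA_2_ KO cells, and that of all genes was -0.01 and 0.01.

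The change with confinement itself differed between genotypes for 5 members. In this interaction, 1 member was more raised in cPLA_2_ KO cells (*Csf2rb*) and 4 were less raised or more lowered (*Csf3*, *Csf2*, *Csf1* and *Csf3r*), against 10.2% and 15.6% of all genes. Between the genotypes without confinement, *Csf3r* was higher and *Csf2rb* lower in cPLA_2_ KO cells, where 4.78% of genes were higher and 4.11% lower. Between the confined genotypes, *Csf2ra* was higher and the 3 ligands were lower in cPLA_2_ KO cells, with 18.8% of genes higher and 20.6% lower. These comparisons share libraries with one another.

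With LPS, 5 members were higher and 1 lower in the libraries labelled cPLA_2_ WT, and 6 were higher and 1 lower in those labelled cPLA_2_ KO. The background was 33.4% of genes higher for either label, with 29.4% lower for the former and 30.1% lower for the latter. Both labels had *Csf3*, *Csf2*, *Csf1*, *Csf3r* and *Csf2ra* higher and *Csf1r* lower, while *Flt3* was past the test in neither. With an equal total given to every library instead, the median over all genes became -0.23 for confinement of cPLA_2_ WT cells, to -0.02 for cPLA_2_ KO cells and to -0.47 and -0.44 for LPS by label. It became 0.24 for the interaction, 0.19 between confined genotypes, and 0.26 and 0.46 for confined cPLA_2_ WT and cPLA_2_ KO cells against LPS, so small changes of receptors depend on the scaling, and values whose call or direction it moved are given below.

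**Figure D1:**
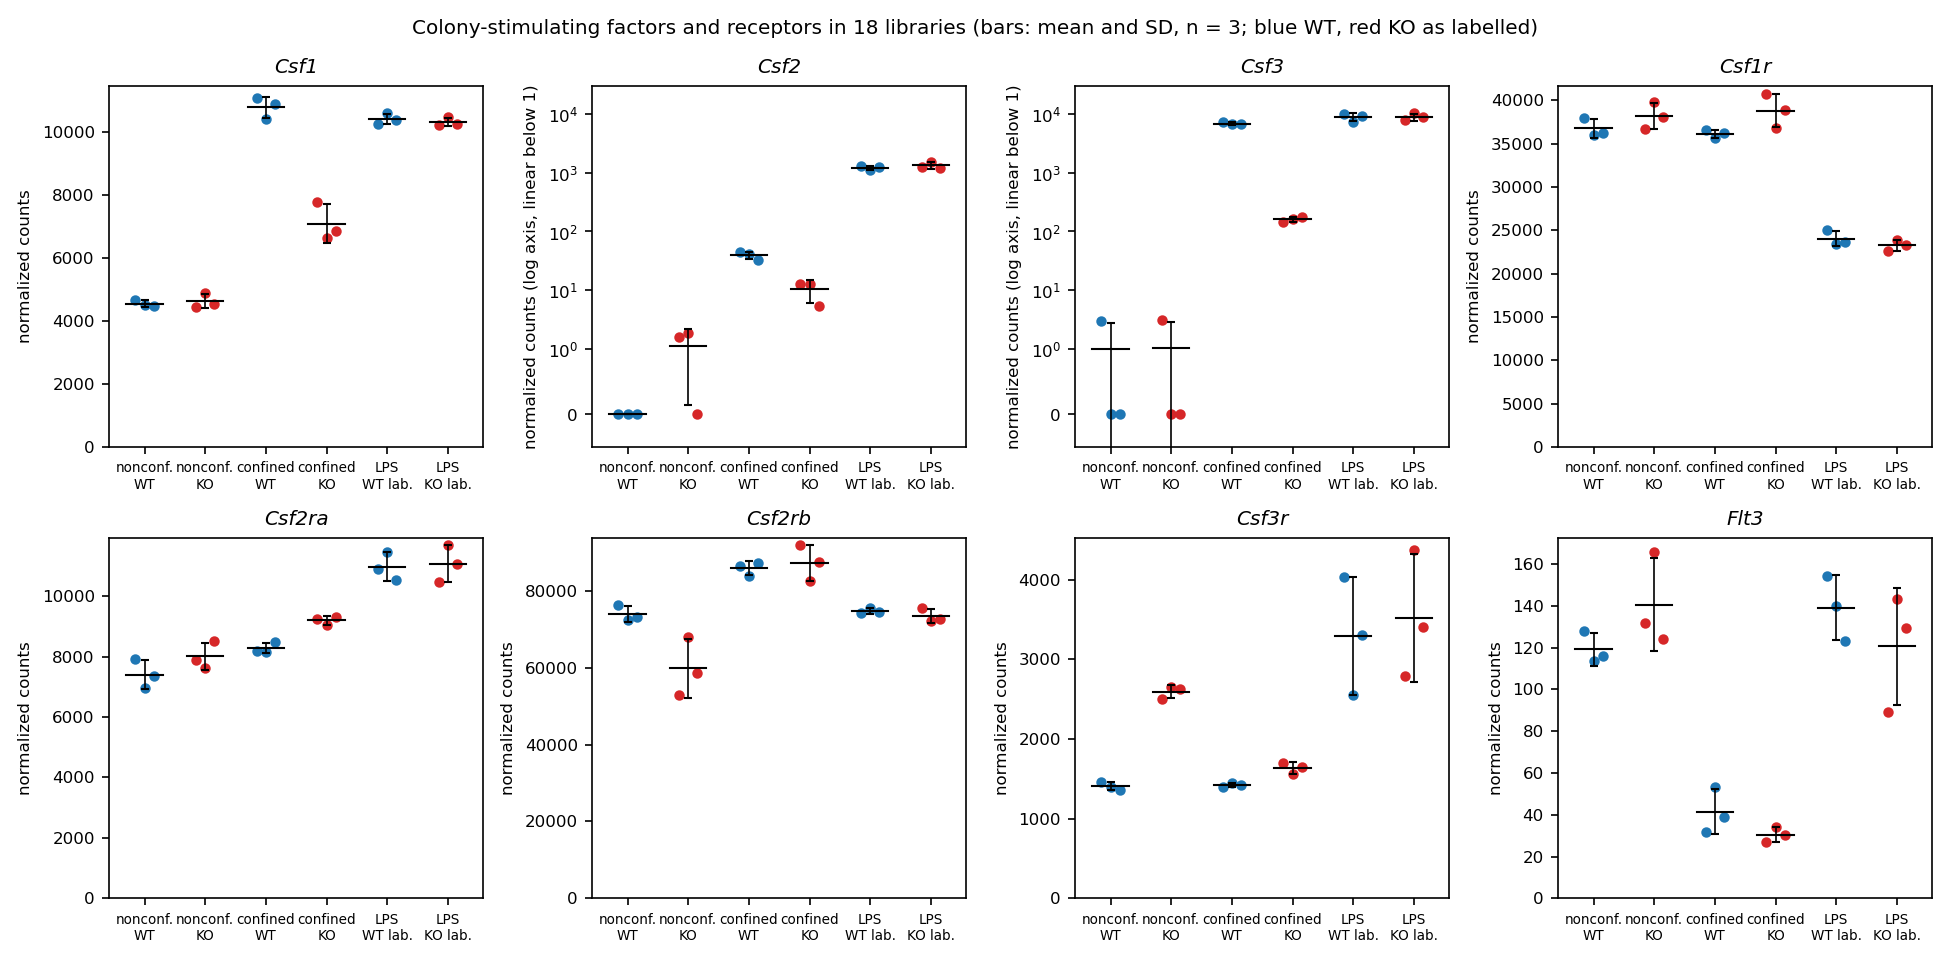
Normalized counts of the 8 family members in each of the 18 libraries (points), by treatment and genotype on the horizontal axis, with the mean and SD of 3 libraries as bars. The axes of *Csf2* and *Csf3* are logarithmic above 1 and the others start at 0. *Csf3* runs from a group mean of 1.02 normalized counts in nonconfined cPLA_2_ WT cells to 8941 in LPS libraries labelled cPLA_2_ KO.

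The mRNA of G-CSF, the factor that mobilizes and expands neutrophils, was nearly absent in nonconfined cells and abundant in most stimulated ones. *Csf3* (GSMG0008144) lies on the plus strand of GRCm39 at chr11:98592139-98594457, with 5 exons in its canonical transcript. Nonconfined cPLA_2_ WT libraries held 3.05, 0 and 0 normalized counts and nonconfined cPLA_2_ KO libraries 3.13, 0 and 0, from 4 reads in each group. After confinement, *Csf3* reached 7259.8, 6701 and 6676 normalized counts in cPLA_2_ WT cells and 147, 162 and 178 in cPLA_2_ KO cells. LPS libraries labelled cPLA_2_ WT had 10157, 7455 and 9112 and those labelled cPLA_2_ KO had 7807, 10248 and 8769.6. *Csf3* was thus at or near 0 in all 6 nonconfined libraries, high in 9 libraries and intermediate in the 3 confined cPLA_2_ KO libraries. No value was shared between confined cPLA_2_ WT, confined cPLA_2_ KO and nonconfined cells, and the labels of LPS libraries overlapped.

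After confinement, mean *Csf3* was 6879 ± 330.3 (SD, n = 3) for cPLA_2_ WT and 162 ± 15.5 (SD, n = 3) for cPLA_2_ KO cells, a ratio of 42.4 with a 95% counting interval of 38.6 to 46.3. Against nonconfined cells the ratio was 6771 (2354 to 22126) for cPLA_2_ WT and 155 (53.5 to 508) for cPLA_2_ KO cells, with wide intervals because the lower group held 4 reads. Such intervals cover counting error alone and leave out the spread between libraries. They would be wider if both ends of read pairs were counted, which was not tested. The fitted log2 fold change of *Csf3* with confinement was 12.07 (SE 0.44, limma adjusted p = 1.23e-15) in cPLA_2_ WT and 6.66 (SE 0.44, adjusted p = 7.72e-11) in cPLA_2_ KO cells. Its change was smaller in cPLA_2_ KO cells by an interaction of -5.41 (SE 0.63, adjusted p = 7.28e-07). Between nonconfined genotypes the fitted difference was 0.01 (adjusted p = 0.995). The fitted values move with the few nonconfined reads, which all fall in replicate 1 of each genotype, and with the count added. With 5 added the changes of *Csf3* were 10.20 and 4.83. Without replicate 1 of nonconfined cPLA_2_ WT cells the interaction was -6.08 and without replicate 1 of nonconfined cPLA_2_ KO cells -4.73, each past the test, and the nonconfined difference was 0.68 and -0.67, not past it.

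With LPS, the log2 fold change of *Csf3* was 12.44 (limma adjusted p = 3.74e-16) for libraries labelled cPLA_2_ WT, 12.43 (adjusted p = 3.72e-16) for those labelled cPLA_2_ KO and 12.44 (adjusted p = 3.83e-19) for both pooled against the pooled nonconfined libraries. Confined cPLA_2_ WT cells differed from LPS libraries of the same label by -0.36 (adjusted p = 0.529), which is not past the test although the confined values all lie below the LPS values. This difference was past the test in edgeR (log2 fold change -0.30, adjusted p = 0.0254), in DESeq2 (-0.34, adjusted p = 0.0296) and when the conditions were compared alone (adjusted p = 0.00743), over a range of adjusted p from 0.00743 to 0.911 across alternatives. Confined cPLA_2_ KO cells were lower than LPS libraries of their label by a log2 fold change of -5.77 (adjusted p = 2.67e-10). Confined cells were taken at 4 h and LPS cells the next day, so treatment and time cannot be told apart in these values.

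GM-CSF was the ligand whose mRNA told confinement and LPS apart most widely. *Csf2* (GSMG0009215) lies on the minus strand at chr11:54138090-54140725, with 4 exons, on the same chromosome as *Csf3*. No read of *Csf2* was found in the 3 nonconfined cPLA_2_ WT libraries, and nonconfined cPLA_2_ KO libraries held 1.57, 1.86 and 0 normalized counts from 2, 2 and 0 reads. Confined cPLA_2_ WT libraries had 44.5, 41.2 and 33.2 normalized counts from 122 reads, and confined cPLA_2_ KO libraries had 12.9, 12.8 and 5.47 from 30 reads. LPS libraries held far more, with 1282, 1119 and 1276 normalized counts under the label cPLA_2_ WT and 1259, 1531 and 1228 under the label cPLA_2_ KO. The order was therefore LPS above confined cPLA_2_ WT, above confined cPLA_2_ KO, above nonconfined cells, without overlap except between the LPS labels and between the nonconfined genotypes.

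Mean *Csf2* in confined cPLA_2_ WT cells was 46.2 times a floor of 3 reads over the nonconfined group, or 0.856 normalized counts. On the same floor, LPS libraries labelled cPLA_2_ WT stood at 1431 times it. These multiples leave out counting error of the higher group. Every read number of *Csf2* in confined and nonconfined libraries was even, so both ends of a read pair may have been counted, which was not tested. If so, the floor is too low, these multiples are too high and counting intervals are too narrow. Where the lower group held reads, the ratio was 9.10 (95% counting interval 3.02 to 33.4) for confined against nonconfined cPLA_2_ KO cells and 3.81 (2.63 to 6.11) for confined cPLA_2_ WT against confined cPLA_2_ KO cells. LPS libraries labelled cPLA_2_ WT exceeded confined cPLA_2_ WT libraries 31.0-fold (25.6 to 37.0). For *Csf3* the same ratio was 1.29 (1.28 to 1.32). That interval leaves out the spread between libraries, and this difference was not past the test in limma (adjusted p = 0.529), as given above.

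In limma, *Csf2* rose with confinement in cPLA_2_ WT cells (log2 fold change 5.33, SE 0.35, adjusted p = 3.02e-11) and in cPLA_2_ KO cells (2.47, SE 0.35, adjusted p = 6.89e-06), with an interaction of -2.86 (SE 0.50, adjusted p = 0.000156). These fitted values depend on the count added before the logarithm and on the tool. The change in cPLA_2_ WT cells was 3.15 with 5 added and 8.43 in edgeR, that in cPLA_2_ KO cells was 1.30 with 5 added, and the interaction was -1.85 with 5 added and -5.46 in edgeR, each still past the test. Between nonconfined genotypes the difference of 0.96 was not past the test (adjusted p = 0.102). It passed with 0.5 added (1.43, adjusted p = 0.0495) and without replicate 3 of nonconfined cPLA_2_ KO cells (1.44, adjusted p = 0.00986), in a range of 0.00986 to 0.698 over all alternatives, and rests on 4 reads. With LPS, *Csf2* rose by a log2 fold change of 10.26 (adjusted p = 2.20e-16) in libraries labelled cPLA_2_ WT, of 9.42 (adjusted p = 9.75e-16) in those labelled cPLA_2_ KO and of 9.84 (adjusted p = 4.61e-19) when both were pooled. Confined cells lay below LPS libraries of their label by -4.92 (adjusted p = 1.93e-10) in cPLA_2_ WT and by -6.95 (adjusted p = 2.36e-13) in cPLA_2_ KO cells.

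M-CSF is the ligand whose mRNA was already abundant in nonconfined cells. *Csf1* (GSMG0035879) lies on the minus strand at chr3:107648365-107667786, with 9 exons. Nonconfined libraries held 4660.3, 4510.0 and 4471 normalized counts in cPLA_2_ WT and 4447, 4889.9 and 4546 in cPLA_2_ KO cells. After confinement the values were 11071, 10419 and 10870.2 in cPLA_2_ WT and 7774, 6621 and 6868 in cPLA_2_ KO cells. LPS libraries had 10246, 10587 and 10388 under the label cPLA_2_ WT and 10233, 10463 and 10258 under the label cPLA_2_ KO. Confined cPLA_2_ WT cells and both sets of LPS libraries overlapped at the top, confined cPLA_2_ KO cells stood between them and nonconfined cells, and the nonconfined genotypes overlapped.

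In cPLA_2_ WT cells mean *Csf1* went from 4547 ± 99.9 (SD, n = 3) to 10787 ± 334 (SD, n = 3) with confinement, a log2 fold change of 1.25 (SE 0.05, limma adjusted p = 8.68e-15). In cPLA_2_ KO cells it went from 4627 ± 233 (SD, n = 3) to 7088 ± 607 (SD, n = 3), a log2 fold change of 0.61 (SE 0.05, adjusted p = 2.91e-09). The interaction was -0.63 (adjusted p = 6.14e-07), and the nonconfined genotypes differed by 0.02 (adjusted p = 0.848). LPS raised *Csf1* by a log2 fold change of 1.19 (adjusted p = 9.14e-15) in libraries labelled cPLA_2_ WT, 1.16 (adjusted p = 1.59e-14) in those labelled cPLA_2_ KO and 1.18 (adjusted p = 1.29e-17) pooled. Scaled to the same total, the LPS changes were 0.68 for either label and still past the test. Confined cPLA_2_ WT cells and LPS libraries of that label differed by 0.05 (adjusted p = 0.433), and by 0.34 under the same total (adjusted p = 5.41e-06) or 0.12 with TMM factors (adjusted p = 0.0495), over a range of 5.41e-06 to 0.682. Confined cPLA_2_ KO cells were lower than LPS libraries by -0.55 (adjusted p = 7.04e-09), or by -0.10 under the same total (adjusted p = 0.0697, range 4.49e-21 to 0.0697).

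**Figure D2:**
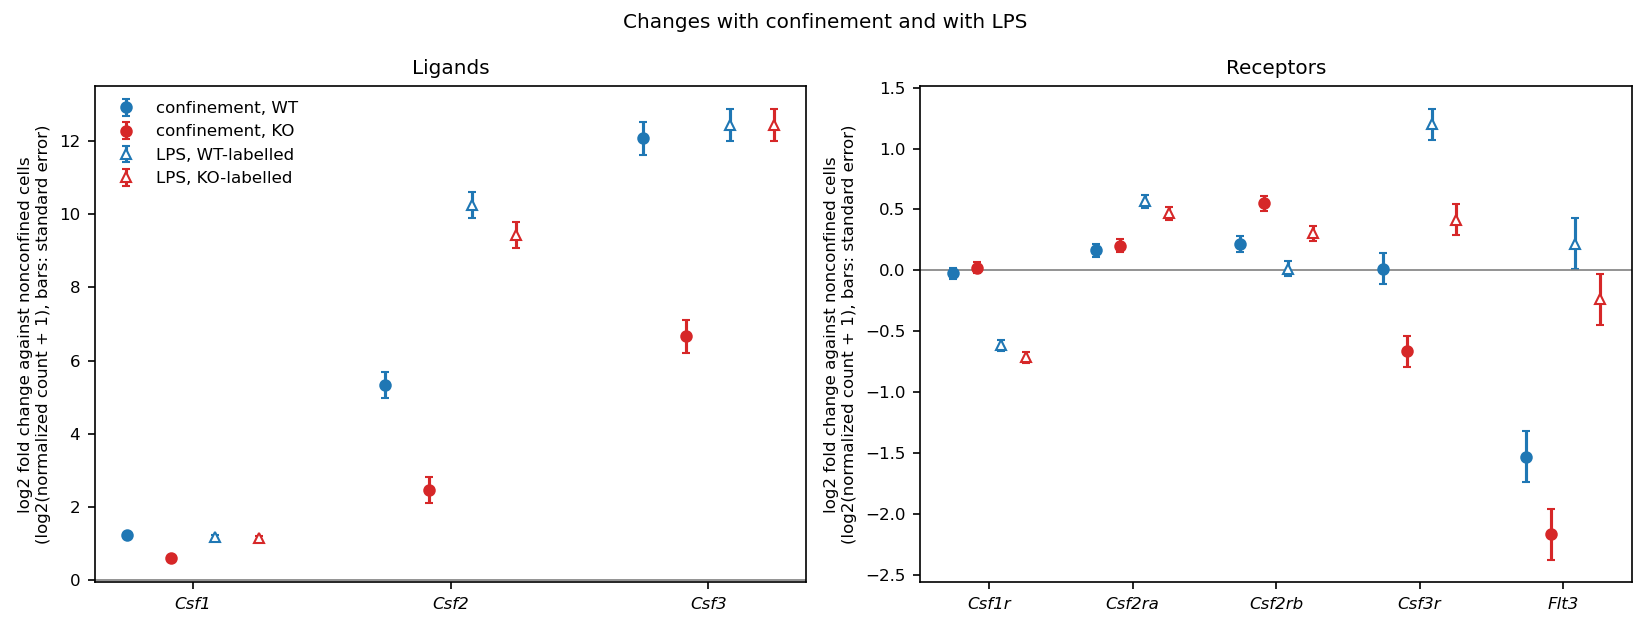
Fitted log2 fold changes against nonconfined cells of the same or same-labelled genotype, for the 3 ligands on the left and the 5 receptor genes on the right, on different vertical scales. Filled circles are confinement, open triangles LPS, blue cPLA_2_ WT and red cPLA_2_ KO, and bars are standard errors. The 3 ligands lie above 0 in each comparison and *Flt3* stands at -1.53 and -2.17 with confinement.

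Sequence before the start of *Csf1* and *Csf2* is shown because these are the ligands with a promoter entry, and 1 was abundant and the other at 0 to 2 reads per library in nonconfined cells. The promoter table of RefSeq (GRCm38.p6) matched 5 of the 8 members and had no entry for *Csf3*, *Csf1r* and *Csf2rb*. The 250 bases before each RefSeq start were searched on both strands for GGG and CC parted by any 5 bases, a short form of the NF-κB motif, and for TGANTCA, the AP-1 motif. The former was found before *Csf1*, *Csf2ra* and *Csf3r*, 3 of the 5, and in 46.0% of 32536 windows of the same length. The latter was found before 0 of the 5 and in 6.7% of the windows. Before *Csf1*, 4 matches of the NF-κB form began 231, 155, 154 and 37 bases ahead of the RefSeq start, and those at 155 and 154 overlap. In the 229 bases printed for *Csf1*, at chr3:107667807-107668035 on the minus strand of GRCm39, capitals mark these matches. The 250 bases printed for *Csf2*, at chr11:54140726-54140975 on the minus strand, hold neither motif and end 233 bases before the canonical start in GENCODE, so the bases next to that start were not searched. The window of *Csf3r* runs 132 bases past its canonical start in GENCODE, and its match, 129 bases before the RefSeq start, lies inside that transcript. A match is a description of letters and not of binding.
*Csf1*: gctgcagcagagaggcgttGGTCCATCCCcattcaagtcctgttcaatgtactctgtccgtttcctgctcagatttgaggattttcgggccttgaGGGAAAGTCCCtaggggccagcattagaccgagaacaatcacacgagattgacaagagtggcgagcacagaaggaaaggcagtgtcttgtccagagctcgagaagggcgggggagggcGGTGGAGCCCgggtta
*Csf2*: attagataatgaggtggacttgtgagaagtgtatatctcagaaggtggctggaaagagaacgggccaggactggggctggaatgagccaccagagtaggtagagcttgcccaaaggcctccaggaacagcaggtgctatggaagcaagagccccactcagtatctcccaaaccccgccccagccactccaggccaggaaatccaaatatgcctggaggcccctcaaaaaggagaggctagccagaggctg

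Levels of different genes were compared per kilobase of canonical exons. In nonconfined cPLA_2_ WT cells *Csf2rb* was the most abundant member, at 15540 normalized counts per kb, followed by *Csf1r* at 6078, *Csf2ra* at 3179.5, *Csf1* at 1083, *Csf3r* at 402, *Flt3* at 32.6, *Csf3* at 0.717 and *Csf2* at 0. In confined cPLA_2_ WT cells *Csf3* stood at 4858 normalized counts per kb, next to *Csf1r* at 5973, while *Csf1* was at 2570.1 and *Csf2* at 49.5. Confined cPLA_2_ KO cells had 115 normalized counts of *Csf3* per kb. In LPS libraries labelled cPLA_2_ WT, *Csf3* reached 6291 normalized counts per kb, above *Csf1r* at 3970.2, and *Csf2* reached 1532. Receptor chains for GM-CSF and M-CSF were thus the leading members at rest, and *Csf3* came near or above the level of *Csf1r* in stimulated cells other than confined cPLA_2_ KO cells.

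The M-CSF receptor maintains macrophages, and its mRNA was steady under confinement. *Csf1r* (GSMG0025934) held 37988, 36027 and 36278 normalized counts in nonconfined cPLA_2_ WT and 36726, 39789.9 and 38110.4 in nonconfined cPLA_2_ KO libraries. Confined libraries held 36591, 35603 and 36203 in cPLA_2_ WT and 40724, 36849 and 38877 in cPLA_2_ KO cells. LPS libraries held 25016, 23386 and 23646 under the label cPLA_2_ WT and 22622, 23843 and 23326 under the label cPLA_2_ KO. The 12 libraries without LPS all lie above the 6 with LPS, and the 4 groups without LPS overlap in turn.

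With confinement the log2 fold change of *Csf1r* was -0.02 (SE 0.04, limma adjusted p = 0.663) in cPLA_2_ WT and 0.02 (SE 0.04, adjusted p = 0.712) in cPLA_2_ KO cells, with an interaction of 0.05 (adjusted p = 0.642). The interaction was 0.24 under the same total (adjusted p = 0.00192, range 0.00192 to 0.936), the same as the median of all genes there. Under the same total per library the change in cPLA_2_ WT cells was -0.25 (adjusted p = 9.97e-06, range 9.97e-06 to 0.991), close to the shift of all genes in that setting. LPS lowered *Csf1r* by a log2 fold change of -0.61 (adjusted p = 6.63e-11) for the label cPLA_2_ WT, -0.72 (adjusted p = 5.12e-12) for the label cPLA_2_ KO and -0.66 (adjusted p = 2.39e-14) pooled, or -1.13 and -1.20 by label under the same total. The confined genotypes differed by 0.10 (adjusted p = 0.073). That difference passed without replicate 2 of confined cPLA_2_ KO cells (0.14, adjusted p = 0.0237) and under the same total (0.26, adjusted p = 1.39e-05), in a range of 1.39e-05 to 0.296.

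The mRNA of the ligand-binding chain for GM-CSF rose with LPS. *Csf2ra* (GSMG0028732) lies on the minus strand at chr19:61212395-61216856, with 12 exons. Nonconfined libraries ranged from 6962 to 7919 normalized counts in cPLA_2_ WT and from 7637 to 8504 in cPLA_2_ KO cells, confined libraries from 8165 to 8489 in cPLA_2_ WT and from 9037 to 9306 in cPLA_2_ KO cells, and the 6 LPS libraries from 10483 to 11705. LPS libraries lie above all others and confined cPLA_2_ KO libraries next. Confined cPLA_2_ WT libraries lie above the nonconfined cPLA_2_ WT ones and overlap the nonconfined cPLA_2_ KO ones, which overlap both. The log2 fold change with LPS was 0.57 (limma adjusted p = 4.40e-09) for the label cPLA_2_ WT, 0.47 (adjusted p = 9.08e-08) for the label cPLA_2_ KO and 0.52 (adjusted p = 4.12e-11) pooled. Under the same total it was 0.05 (adjusted p = 0.344) and -0.01 (adjusted p = 0.844) by label, while all genes shifted by -0.47 and -0.44, and adjusted p ranged from 2.83e-21 to 0.344 and from 1.67e-14 to 0.844.

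With confinement *Csf2ra* changed by a log2 fold change of 0.16 (SE 0.05, adjusted p = 0.0118) in cPLA_2_ WT and 0.20 (SE 0.05, adjusted p = 0.00366) in cPLA_2_ KO cells, with an interaction of 0.04 (adjusted p = 0.77), or 0.23 under the same total (adjusted p = 0.0162, range 0.0162 to 0.999), where the median of all genes was 0.24. The call in cPLA_2_ WT cells was lost without replicate 2 of nonconfined cPLA_2_ WT cells (0.12, adjusted p = 0.0851) or replicate 3 of confined cPLA_2_ WT cells (0.15, adjusted p = 0.0502), and under the same total the value turned to -0.06 (adjusted p = 0.299), in a range of 0.00301 to 0.299. The difference between confined genotypes was 0.15 (adjusted p = 0.0274). It was lost with no filter (adjusted p = 0.0504), with TMM factors (0.12, adjusted p = 0.0806), in edgeR (0.12, adjusted p = 0.0866) and without replicate 1 or 2 of confined cPLA_2_ WT cells (adjusted p = 0.0732 and 0.0818) or replicate 1 or 3 of confined cPLA_2_ KO cells (adjusted p = 0.0674 and 0.079), in a range of 3.99e-05 to 0.0866. The nonconfined genotypes differed by 0.11 (adjusted p = 0.206).

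The β chain, which carries the signal of GM-CSF and also of IL-3 and IL-5, was the member with the highest mRNA level. *Csf2rb* (GSMG0018568) lies on the plus strand at chr15:78209998-78238047, with 14 exons, beside its close paralog *Csf2rb2* (chr15:78166707-78189921, minus strand), which encodes a β chain for IL-3. *Csf2rb* held 76355, 72466 and 73274 normalized counts in nonconfined cPLA_2_ WT and 52852, 68051 and 58622 in nonconfined cPLA_2_ KO libraries. Confined libraries held 86579, 84004 and 87351 in cPLA_2_ WT and 91855, 82596 and 87451 in cPLA_2_ KO cells. LPS libraries held 72259.6 to 75642 over both labels. The confined libraries were the highest with both genotypes overlapping, LPS libraries overlapped nonconfined cPLA_2_ WT ones, and the nonconfined cPLA_2_ KO libraries were the lowest and the most spread.

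The nonconfined genotypes differed in *Csf2rb* by a log2 fold change of -0.31 (limma adjusted p = 0.00304), and the confined ones by 0.02 (adjusted p = 0.83), or by 0.18 under the same total (adjusted p = 0.029, range 0.029 to 0.974), where the median of all genes was 0.19. Confinement raised it by 0.22 (SE 0.06, adjusted p = 0.00561) in cPLA_2_ WT and by 0.55 (SE 0.06, adjusted p = 2.84e-07) in cPLA_2_ KO cells, an interaction of 0.34 (adjusted p = 0.00709). Under the same total the change in cPLA_2_ WT cells was -0.01 (adjusted p = 0.916, range 1.82e-05 to 0.916) and the interaction 0.52. With LPS the log2 fold change was 0.01 (adjusted p = 0.858) for the label cPLA_2_ WT, 0.30 (adjusted p = 0.00022) for the label cPLA_2_ KO and 0.16 (adjusted p = 0.00292) pooled, and -0.50 and -0.18 by label under the same total. The label cPLA_2_ KO is compared with the low nonconfined cPLA_2_ KO libraries here.

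*Csf2rb2* averaged 34483 ± 788 (SD, n = 3) normalized counts in nonconfined cPLA_2_ WT, 27952 ± 3739 (SD, n = 3) in nonconfined cPLA_2_ KO, 38847 ± 704 (SD, n = 3) in confined cPLA_2_ WT and 34521 ± 2020.8 (SD, n = 3) in confined cPLA_2_ KO cells. It was lower in nonconfined cPLA_2_ KO cells as well (log2 fold change -0.31, limma adjusted p = 0.00399) and lower in confined cPLA_2_ KO cells (-0.17, adjusted p = 0.0382), where the same total gave -0.02, not past the test. Reads shared by the similar sequences of the paralogs may have been counted under either gene, which was not tested. When both were summed, the differences of confined cells from LPS libraries, 0.20 (adjusted p = 0.0109) in cPLA_2_ WT and 0.25 (adjusted p = 0.00193) in cPLA_2_ KO cells for *Csf2rb* alone, were 0.12 (adjusted p = 0.144, range 1.83e-06 to 0.144) and 0.10 (adjusted p = 0.167, range 7.25e-09 to 0.167).

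The G-CSF receptor, found on neutrophils and their precursors and on some monocytes, was the receptor whose mRNA parted the nonconfined genotypes most. *Csf3r* (GSMG0037212) lies on the plus strand at chr4:125918452-125938768, with 17 exons. Nonconfined libraries held 1466, 1404 and 1366 normalized counts in cPLA_2_ WT and 2507, 2658 and 2626 in cPLA_2_ KO cells. Confined libraries held 1396, 1453 and 1420.2 in cPLA_2_ WT and 1699, 1560.1 and 1651 in cPLA_2_ KO cells. LPS libraries held 4036, 2554 and 3308 under the label cPLA_2_ WT and 2787, 4381 and 3413 under the label cPLA_2_ KO. Nonconfined cPLA_2_ KO cells were above nonconfined cPLA_2_ WT cells without overlap, confined cPLA_2_ KO cells stood just above confined cPLA_2_ WT cells, and the LPS libraries spread widely within each label.

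The nonconfined genotypes differed in *Csf3r* by a log2 fold change of 0.88 (limma adjusted p = 0.000184), from 1412 ± 50.6 (SD, n = 3) to 2597 ± 79.8 (SD, n = 3) normalized counts. Confinement changed it by 0.01 (SE 0.13, adjusted p = 0.948) in cPLA_2_ WT and by -0.67 (SE 0.13, adjusted p = 0.000213) in cPLA_2_ KO cells, an interaction of -0.68 (adjusted p = 0.00777). The confined genotypes differed by 0.20 (adjusted p = 0.235), which passed when these conditions were compared alone (adjusted p = 0.00613) and under the same total (0.36, adjusted p = 0.0211), in a range of 0.00613 to 0.396. LPS raised *Csf3r* by 1.20 (adjusted p = 3.93e-08) for the label cPLA_2_ WT, or 0.69 under the same total and still past the test, 0.42 (adjusted p = 0.00732) for the label cPLA_2_ KO and 0.81 (adjusted p = 5.79e-08) pooled. The value for the label cPLA_2_ KO was 0.25 (adjusted p = 0.0731) without its replicate 2 and -0.06 (adjusted p = 0.666) under the same total, in a range of 5.79e-08 to 0.666.

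Markers of granulocytes also moved between these libraries. All 6 eosinophil markers were detected in every library, with *Prg2* the most abundant, and they summed to 30845 to 31132 normalized counts in nonconfined cPLA_2_ WT, 70606 to 75852 in nonconfined cPLA_2_ KO, and, after confinement, to 8279.7 to 8934 for cPLA_2_ WT and 21243 to 22078 for cPLA_2_ KO libraries. In LPS libraries these sums were 43969, 25589 and 35214 under the label cPLA_2_ WT and 25523, 43976 and 35822 under the label cPLA_2_ KO, so the LPS libraries with more *Csf3r* were also those with more *Csf3*, more eosinophil and DC marker RNA and more *Ddx3y*. The DC marker sums were 724469, 609561 and 652722 normalized counts under the label cPLA_2_ WT and 608837, 708713 and 669806 under the label cPLA_2_ KO. Neutrophil marker sums ran in the order of *Csf3r* within each label too. They were 319773, 301127 and 303413 under the former and 287488, 323652 and 305297 under the latter. Mast cell and basophil marker sums ran the other way, at 15692, 18500 and 16485 under the former and 18711, 15542 and 17290 under the latter. These sums do not stand for the list of 7 markers. Their mean was 7012 in nonconfined cPLA_2_ WT and 10484 in nonconfined cPLA_2_ KO cells, against 16893 and 17181 with LPS by label. The median log2 change of the markers with LPS was -0.16 and -0.70 by label. Of the 6 eosinophil markers, 5 were higher and 1 lower in nonconfined cPLA_2_ KO than cPLA_2_ WT cells, where 4.78% of all genes were higher and 4.11% lower. The 10 neutrophil markers summed to 161812 to 171533 normalized counts in confined cPLA_2_ WT, 354987 to 368823 in confined cPLA_2_ KO and 287488 to 323652 in LPS libraries. Of these, 8 were higher and 0 lower in nonconfined cPLA_2_ KO than cPLA_2_ WT cells, 10 were higher in confined cPLA_2_ KO than cPLA_2_ WT cells, 8 fell with confinement in cPLA_2_ WT cells, and 2 rose and 4 fell in cPLA_2_ KO cells. Among all genes, 18.8% were higher between the confined genotypes. With confinement 28.4% fell in cPLA_2_ WT cells, and 22.8% rose and 23.4% fell in cPLA_2_ KO cells. The protocol meant to discard nonadherent cells, granulocytes among them, before DCs were recovered, and the part of such cells in the values of *Csf3r* was not tested.

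**Figure D3:**
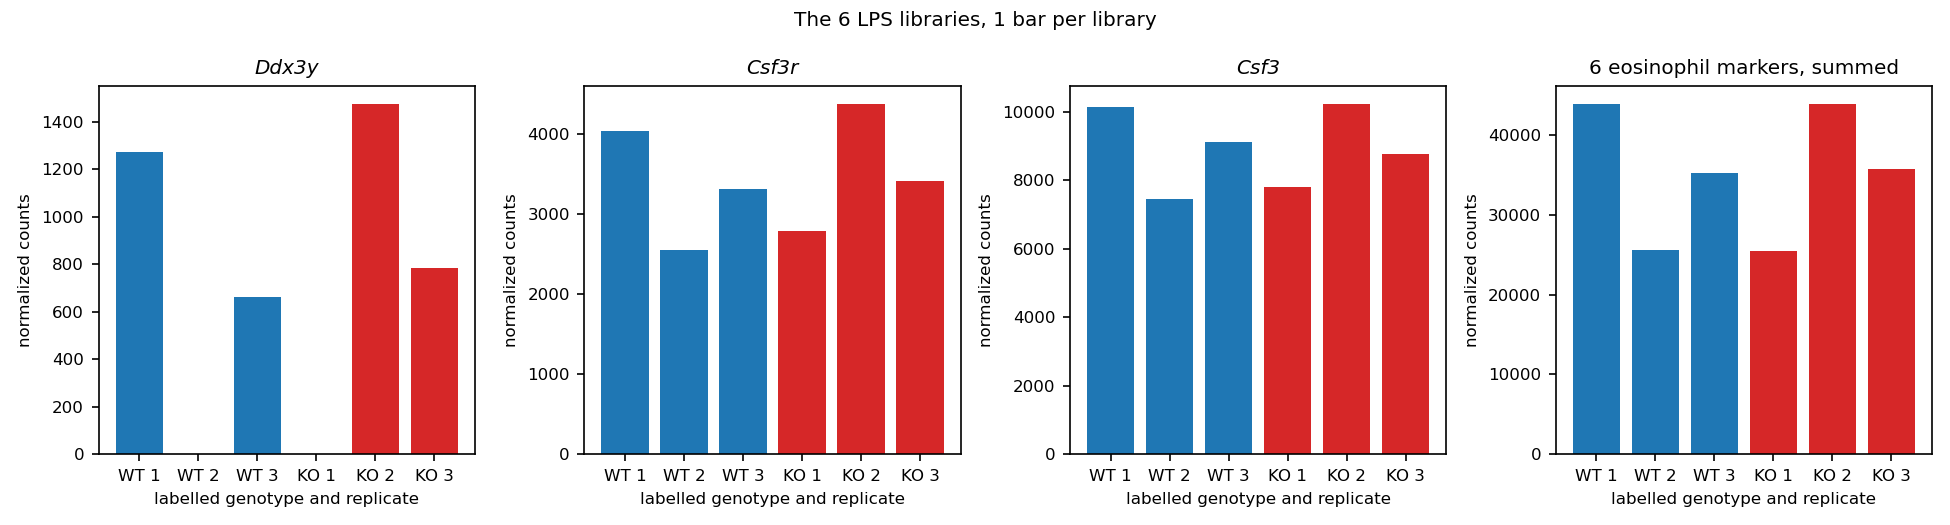
Normalized counts of *Ddx3y*, *Csf3r* and *Csf3* and the summed normalized counts of 6 eosinophil markers in each of the 6 LPS libraries, 1 bar per library, blue for the label cPLA_2_ WT and red for the label cPLA_2_ KO. The highest bar of *Csf3r* within each label, 4036 and 4381, belongs to the library with the most *Ddx3y*, 1271 and 1476.

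The FLT3 ligand receptor marks DC progenitors and conventional DCs, and it was the member whose mRNA fell with confinement in both genotypes. *Flt3* (GSMG0043344) lies on the minus strand at chr5:147267554-147337301, with 24 exons. Nonconfined libraries held 128, 113 and 116 normalized counts in cPLA_2_ WT and 132, 166 and 124 in cPLA_2_ KO cells. Confined libraries held 31.9, 53.2 and 39.1 in cPLA_2_ WT and 27.0, 34.1 and 30.1 in cPLA_2_ KO cells. LPS libraries held 154, 140.04 and 123 under the label cPLA_2_ WT and 89.1, 143 and 129.5 under the label cPLA_2_ KO. The 6 confined libraries lie below the other 12, and the other 4 groups overlap.

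The log2 fold change of *Flt3* with confinement was -1.53 (SE 0.21, limma adjusted p = 1.96e-06) in cPLA_2_ WT and -2.17 (SE 0.21, adjusted p = 2.64e-08) in cPLA_2_ KO cells, with an interaction of -0.64 (adjusted p = 0.126). LPS gave 0.22 (adjusted p = 0.382) for the label cPLA_2_ WT, -0.24 (adjusted p = 0.338) for the label cPLA_2_ KO and -0.01 (adjusted p = 0.96) pooled. Under the same total the value for the label cPLA_2_ KO was -0.71 (adjusted p = 0.00511, range 0.00511 to 0.96). The confined genotypes differed by -0.41 (adjusted p = 0.133), and by -0.58 (adjusted p = 0.0485) without replicate 1 of confined cPLA_2_ WT cells, in a range of 0.0485 to 0.487. DC markers moved with confinement as well, where 28.2% of all genes were higher and 28.4% lower in cPLA_2_ WT cells, and 22.8% and 23.4% in cPLA_2_ KO cells. Of 12, 1 was higher (*Irf4*) and 9 were lower in cPLA_2_ WT cells and 12 were lower in cPLA_2_ KO cells, or 0 higher and 11 lower in cPLA_2_ WT cells under the same total, among them *Cd209a* with log2 fold changes of -2.62 and -2.40. They summed to 481053 to 506556 normalized counts in nonconfined and 423795 to 454995 in confined cPLA_2_ WT libraries, with *Cd74* the most abundant, and to 573599 to 610445 in nonconfined and 409606 to 424856 in confined cPLA_2_ KO libraries. Their part in the fall of *Flt3* was not tested.

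Of 5 further ligands of these or related receptors, 4 were at or near 0. *Il34*, the second ligand of the M-CSF receptor, was at 0 in 15 of 18 libraries, *Il3* in 13, *Il5* in 14 and *Kitl* in 5. Only *Flt3l*, which encodes FLT3 ligand and averaged 352 normalized counts in nonconfined cPLA_2_ WT cells, was tested among these 5. It fell with confinement by a log2 fold change of -0.76 (limma adjusted p = 2.94e-06) in cPLA_2_ WT and -0.48 (adjusted p = 0.000851) in cPLA_2_ KO cells, and with LPS by -0.77 and -0.45 by label. *Flt3l* and its receptor gene thus both fell with confinement, and *Flt3l* alone passed the test with LPS.

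Chains that share a partner or family with the receptors were tested as a list of 4. With confinement 2 were higher and 1 lower in cPLA_2_ WT cells, and 2 were higher and 2 lower in cPLA_2_ KO cells, while under the same total 0 were higher and 2 lower in cPLA_2_ WT cells. The background in the main fit was 28.2% of genes higher and 28.4% lower in cPLA_2_ WT cells, and 22.8% and 23.4% in cPLA_2_ KO cells. *Il5ra*, the IL-5 receptor chain of eosinophils that pairs with the β chain, changed by a log2 fold change of -2.42 (limma adjusted p = 2.75e-07) in cPLA_2_ WT and -1.79 (adjusted p = 2.86e-05) in cPLA_2_ KO cells. *Kit*, the stem cell factor receptor, changed by 0.37 (adjusted p = 0.000592) and 0.80 (adjusted p = 6.42e-08), an interaction of 0.43 (adjusted p = 0.00793). *Il3ra*, the α chain for IL-3, changed by -0.03 (adjusted p = 0.83) and -0.42 (adjusted p = 0.00125), an interaction of -0.39 (adjusted p = 0.0401). With equal totals *Kit* in cPLA_2_ WT cells (0.14) and the interaction of *Il3ra* (-0.20) were not past the test, while *Il3ra* in cPLA_2_ WT cells (-0.25) was. *Csf2rb2* is the remaining chain, and its change in cPLA_2_ WT cells, 0.17, turned to -0.05 there and was not past the test.

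Genes that carry the signal of these receptors were mostly raised by confinement in cPLA_2_ WT cells. Of 16, 11 were higher and 3 lower in cPLA_2_ WT cells (median log2 change 0.56), 7 higher and 3 lower in cPLA_2_ KO cells (0.10), and the interaction had 2 higher and 8 lower (-0.26). Under the same total the counts were 9 higher and 4 lower in cPLA_2_ WT cells and 3 higher and 6 lower in the interaction. The medians of all genes were -0.01, 0.01 and 0.05. Their shares higher and lower were 28.2% and 28.4% in cPLA_2_ WT cells, 22.8% and 23.4% in cPLA_2_ KO cells, and 10.2% and 15.6% in the interaction. *Stat5a*, which GM-CSF activates, went from a mean of 3572 ± 112 (SD, n = 3) to 12140 ± 459 (SD, n = 3) with confinement of cPLA_2_ WT cells, a log2 fold change of 1.76 (limma adjusted p = 8.94e-18). In cPLA_2_ KO cells *Stat5a* changed by 0.25 (adjusted p = 0.000234), an interaction of -1.51 (adjusted p = 1.55e-13). *Stat3*, used by the G-CSF receptor, changed by 1.69 (adjusted p = 1.82e-14) in cPLA_2_ WT and 0.27 (adjusted p = 0.00379) in cPLA_2_ KO cells. *Jak2*, the kinase bound by the β chain, changed by 1.31 (adjusted p = 7.24e-16) in cPLA_2_ WT and 0.04 (adjusted p = 0.544) in cPLA_2_ KO cells, an interaction of -1.27 (adjusted p = 1.45e-12). *Ptpn6*, a phosphatase that damps these receptors, fell in both genotypes, by -0.72 (adjusted p = 9.45e-13) and -0.68 (adjusted p = 7.27e-12). *Grb2*, an adaptor of receptor tyrosine kinases, rose by 0.26 (adjusted p = 4.92e-06) in cPLA_2_ WT cells, but by 0.04 under the same total, not past the test. With LPS, 14 were higher and 2 lower for the label cPLA_2_ WT and 13 higher and 2 lower for the label cPLA_2_ KO, or 9 higher and 4 lower and 8 higher and 4 lower under the same total. The background in the main fit was 33.4% of genes higher for either label, with 29.4% and 30.1% lower.

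Feedback and target genes of STAT5 and STAT3 also differed between the genotypes in their change with confinement. Of 12, 10 were higher and 1 lower with confinement in cPLA_2_ WT cells (median log2 change 0.78), and 3 were higher and 4 lower in cPLA_2_ KO cells (-0.06). The interaction had 0 higher and 11 lower (-0.93). The shares of all genes higher and lower were 28.2% and 28.4% in cPLA_2_ WT cells and 22.8% and 23.4% in cPLA_2_ KO cells. In the interaction they were 10.2% and 15.6%. The counts in cPLA_2_ KO cells lay near the shares of all genes. Under the same total the counts were 9 higher and 2 lower in cPLA_2_ WT cells, 3 higher and 5 lower in cPLA_2_ KO cells and 0 higher and 11 lower in the interaction. *Socs3*, which blocks signalling by the G-CSF receptor, went from a mean of 4144 ± 212.5 (SD, n = 3) to 39830 ± 1421 (SD, n = 3) with confinement of cPLA_2_ WT cells, a log2 fold change of 3.27 (limma adjusted p = 8.10e-22). In cPLA_2_ KO cells *Socs3* changed by 0.41 (adjusted p = 1.38e-06), an interaction of -2.85 (adjusted p = 1.05e-17). *Osm*, a cytokine gene induced through STAT5, rose by 1.87 (adjusted p = 8.49e-15) in cPLA_2_ WT and 1.02 (adjusted p = 5.95e-10) in cPLA_2_ KO cells. *Pim2*, a survival kinase, changed by 1.33 (adjusted p = 1.01e-08) and -0.15 (adjusted p = 0.372). *Mcl1*, a survival factor, and *Cish*, a STAT5 feedback inhibitor, changed by 0.62 (adjusted p = 7.66e-10) and 0.35 (adjusted p = 1.23e-06) in cPLA_2_ WT cells, or 0.40 and 0.12 under the same total, both past the test. With LPS all 12 were higher for both labels, where 33.4% of all genes were, with medians of 1.41 and 1.30, and 11 and 10 under the same total. These genes also answer to other cytokines, and which of them acted was not tested.

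The 3 ligand mRNAs carry AU-rich elements in their 3′ ends, through which binding proteins set their decay. Of 6 regulators of mRNA decay, most of them proteins of this kind, 3 were higher and 2 lower with confinement in cPLA_2_ WT cells, 1 higher and 3 lower in cPLA_2_ KO cells, and 4 higher and 1 lower with LPS under either label. Among all genes, 28.2% were higher and 28.4% lower with confinement in cPLA_2_ WT cells, and 22.8% and 23.4% in cPLA_2_ KO cells. With LPS, 33.4% of all genes were higher under either label, and 29.4% and 30.1% lower. With equal totals, 2 of the 6 were higher and 3 lower with confinement of cPLA_2_ WT cells, and 3 were higher and 3 lower with LPS under either label. These counts are not read as a change of the list as a whole. *Zc3h12a*, which encodes the RNase Regnase-1 and acts on stem-loops rather than AU-rich elements, rose by a log2 fold change of 2.90 (limma adjusted p = 3.75e-20) in cPLA_2_ WT and 1.03 (adjusted p = 5.54e-12) in cPLA_2_ KO cells, an interaction of -1.87 (adjusted p = 8.48e-14). *Zfp36*, which encodes the decay factor tristetraprolin, changed by 0.81 (adjusted p = 1.95e-08) and -0.07 (adjusted p = 0.533). Its relatives *Zfp36l1* and *Zfp36l2* changed by 0.19 (adjusted p = 0.00139) and -0.92 (adjusted p = 5.57e-11) in cPLA_2_ WT cells, and the former was -0.03 under the same total, not past the test.

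Set against LPS libraries of the same label, confined cPLA_2_ WT cells had 2 members higher (*Csf1r* and *Csf2rb*) and 4 lower (*Csf2*, *Csf2ra*, *Csf3r* and *Flt3*), where 21.6% of all genes were higher and 27.2% lower. Confined cPLA_2_ KO cells had the same 2 higher and the other 6 lower, where 28.1% of genes were higher and 30.6% lower. *Csf1r* stood 0.59 (limma adjusted p = 3.69e-10) higher on the log2 scale in confined cPLA_2_ WT cells than under LPS, and 0.74 (adjusted p = 4.01e-12) higher in confined cPLA_2_ KO cells. *Flt3* differed by -1.75 (adjusted p = 4.50e-07) and -1.93 (adjusted p = 6.38e-08), and *Csf3r* by -1.19 (adjusted p = 1.04e-07) and -1.08 (adjusted p = 2.41e-07), the latter -0.64 under the same total and still past the test. *Csf2ra* differed by -0.40 (adjusted p = 1.54e-06) in cPLA_2_ WT cells, or -0.12 (adjusted p = 0.0557, range 2.79e-10 to 0.0557) under the same total. Its value in cPLA_2_ KO cells, -0.27 (adjusted p = 0.000173), turned to 0.18 (adjusted p = 0.00391) in that setting. Against the 6 LPS libraries pooled, the values for confined cPLA_2_ WT cells were -0.37 for *Csf3*, -4.99 for *Csf2*, 0.06 for *Csf1*, 0.61 for *Csf1r*, -1.24 for *Csf3r* and -1.64 for *Flt3*. Time after treatment differs between these groups, as given above.

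Markers of further cell types were followed in the same libraries. For each list below, the background with confinement was 28.2% of all genes higher and 28.4% lower in cPLA_2_ WT cells, and 22.8% and 23.4% in cPLA_2_ KO cells. Of 10 macrophage markers, 2 were higher and 5 lower with confinement in cPLA_2_ WT cells (1 and 6 under the same total) and 2 were higher and 7 lower in cPLA_2_ KO cells. Their sum went from 28665 to 30060.2 normalized counts in nonconfined to 154984 to 163421 in confined cPLA_2_ WT libraries, and from 33680 to 34360 to 43738 to 47135 in cPLA_2_ KO libraries, while *Cd14* alone went from a mean of 1899 to 131500 in cPLA_2_ WT cells. *Cd68* was the more abundant of the pair in nonconfined cells and in confined cPLA_2_ KO cells. Of 7 mast cell and basophil markers, 1 was higher and 5 lower in cPLA_2_ WT cells, and 1 was higher and 6 lower in cPLA_2_ KO cells. The gene raised was *Hdc* in both. The sum of all 7 went from 6907 to 7136 normalized counts in nonconfined to 14562 to 15260 in confined cPLA_2_ WT libraries, and from 10306 to 10711 to 5503 to 5648 in cPLA_2_ KO libraries. *Hdc* alone went from a mean of 735.5 to 12370 in cPLA_2_ WT cells and from 1040 to 1458 in cPLA_2_ KO cells. The higher sum in confined cPLA_2_ WT libraries is thus that of *Hdc* and not of the list. Lymphocyte markers were low apart from *Cd3g*, 3 of the 4 tested fell with confinement in cPLA_2_ WT cells, and *Ncr1* was at 0 in 13 and *Klrb1c* in 4 of 18 libraries. The 5 stromal markers summed to 118 to 342 normalized counts in any library, with *Dcn* at 0 in 9. Of the 4 tested, 2 were higher (*Pdgfrb* and *Pdgfra*) and 1 lower (*Col1a1*) with confinement in cPLA_2_ WT cells, and 1 was higher and 1 lower in cPLA_2_ KO cells. *Pdgfrb* had log2 fold changes of 2.55 for cPLA_2_ WT cells but -0.99 for cPLA_2_ KO cells, and the part of such cells in the ligand values was not tested.

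Genes whose log2 values ran most alike with each member were ranked by Pearson's r over the 18 libraries, among 10553 tested genes with a symbol and a mean of at least 100 normalized counts (10554 for *Flt3*). These r describe libraries that fall into 6 groups and are given without a test. For *Csf3* the 5 leading genes were *Coq10b* (r = 0.995), *Il1rn* (0.994), *Dusp5* (0.992), *Ereg* (0.992) and *Ptgs2* (0.992). *Dusp5* (0.995) also led for *Csf1*, followed by *Cd14*, *Flrt3*, *Gna13* and *Lamp2* (0.993). The leading genes for *Csf2* were *Mtpn* (0.994), *Rab5b*, *Wsb1*, *Btg1* and *Hspa1b* (0.993). *Ptgs2*, which encodes the prostaglandin synthase COX-2, averaged 82.0 normalized counts in nonconfined cPLA_2_ WT, 35990 in confined cPLA_2_ WT but 2255 in confined cPLA_2_ KO cells, an order it shares with *Csf3*.

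Among the receptors, *Csf1r* ran most like *Slc37a3* (r = 0.991), *Selenon*, *Gnpda1*, *Ypel3* and *Cd93*, each lower in LPS libraries. *Csf2ra* ran most like *Rhob* (0.972), *Crlf2*, *Ostf1*, *Akt1s1* and *Dubr*. For *Csf2rb* the values were lower, with *Nek9* (0.936), *Rad54l2*, *Tnrc6a*, *Ago2* and *Abhd2* (0.916). *Csf3r* ran most like the class II gene *H2-Eb1* (0.969), *Il18*, *Chil1*, *Adam19* and *Cnn2*. *Flt3* ran most like *Ogfrl1* (0.96), *Tmem176b*, *Hsd11b2*, *Cd72* and *Pnkd* (0.952).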

How the data were processed

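Bulk RNA-seq libraries of cPLA_2_ WT and cPLA_2_ KO DCs were analysed from the deposited table, which gives for each gene a signal that the authors obtained by dividing counts by the DESeq2 size factor of the library, without scaling for length. The submitters' processing notes name STAR 2.7.5a, featureCounts 1.5.0, DESeq2, R 3.5.3 and mm39. Whole reads were recovered (100% of values whole within 0.001). In R 4.3.3, limma 3.58.1 with a trended eBayes was fitted to log2(normalized count + 1) for 17875 genes across 6 groups in 10 comparisons, with Benjamini-Hochberg adjustment over all genes tested. Alternatives were pseudocounts of 0.5 and 5, a minimum of 100 normalized counts or none, scaling to equal totals or by TMM factors, edgeR 4.0.16, DESeq2 1.42.0, compared conditions alone, a replicate block, each library left out, stricter calls, pooled LPS labels, and *Csf2rb* summed with *Csf2rb2*. Counts of the lists and values of their named genes under other scalings were chosen after seeing the data. Members and lists were chosen with earlier results of these data known. Named genes were all 8 members and, from each list, the 3 most changed by confinement in cPLA_2_ WT cells, the 3 most abundant and defining markers near 0, while *Itgax* and *Irf4* were added once results were known. The pipeline was tested on simulated data for confinement of cPLA_2_ WT cells. It recovered 100 of 100 genes with a log2 change of 1 and 62 of 100 with 0.5, with 4 false calls among 16884 genes. The simulation gave all genes the same dispersion and changed a small set of genes in that group alone, unlike these data. Figures were drawn with matplotlib 3.10.9.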

Additional observations from a re-analysis of the deposited data

Results flagged for a closer look

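The change with confinement differed between the genotypes, by the test of the difference itself, for 5 of the 8 genes. Of these, 1 was higher and 4 lower, where 10.2% of all genes were higher and 15.6% lower. With every library at the same total, *Csf1r* (0.24) and *Csf2ra* (0.23) passed too, but the median of all genes stood at 0.24 there, so these calls show no difference beyond the common shift. The change in cPLA_2_ KO minus the change in cPLA_2_ WT cells, as a log2 value, was -5.41 for *Csf3*, -2.86 for *Csf2*, -0.68 for *Csf3r*, -0.63 for *Csf1* and 0.34 for *Csf2rb*. Of these 5, *Csf3r* and *Csf2rb* already differed between nonconfined genotypes, by 0.88 and -0.31, whereas the 3 ligands did not pass the test there. *Csf2* did pass there with 0.5 added (1.43, limma adjusted p = 0.0495) and without replicate 3 of nonconfined cPLA_2_ KO cells (1.44, adjusted p = 0.00986). Few reads of *Csf2* and *Csf3* were found in nonconfined cells, so not passing says little for these 2 genes. The genotypes also differ in *Ddx3y*, so genotype and donor sex cannot be told apart in any of the 5.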

How the results depend on the processing

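Of 1370 values of members under an alternative, 1330 kept their side of the test, 15 lost the call, 18 gained one and 7 turned where a value was past the test, and of 190 counts of members past the test 180 stayed within 1.5 times the main count. Among the 1330, 32 changed sign with neither value past the test, among them *Csf3* between nonconfined genotypes (-0.67 without replicate 1 of cPLA_2_ KO cells). The 7 that turned with a value past the test all did so under the same total per library, where log2 values were -0.00907 for *Csf2rb* and -0.0619 for *Csf2ra* with confinement of cPLA_2_ WT cells, -0.50 and -0.18 for *Csf2rb* with LPS by label, -0.0121 for *Csf2ra* and -0.0626 for *Csf3r* with LPS under the label cPLA_2_ KO, and 0.18 for *Csf2ra* in confined cPLA_2_ KO cells against LPS. In that setting 7 members in place of 4 passed between the confined genotypes, where the median of all genes moved from 0.04 to 0.19. The added members stood at 0.18 (*Csf2rb*), 0.26 (*Csf1r*) and 0.36 (*Csf3r*) there. In the main fit they stood at 0.02, 0.10 and 0.20, none past the test, so each moved by about as much as the median of all genes. An absolute log2 fold change above 1, required in addition, left 3 of 7 members for confinement of cPLA_2_ KO cells, 2 of 5 for the interaction, 0 of 2 for nonconfined genotypes, 2 of 4 for confined genotypes, 3 of 7 for LPS under the label cPLA_2_ KO, and 3 of 6 and 4 of 8 for confined cPLA_2_ WT and cPLA_2_ KO cells against LPS. Here the stricter call itself lowers the count. An unadjusted p with a fold change of 1.5 left 4 of 7 for LPS under the label cPLA_2_ KO and 5 of 8 for confined cPLA_2_ KO cells against LPS. With a replicate block the counts were 6, 7, 5, 2, 4, 6, 7, 0, 6 and 8 in the 10 comparisons, as without it, and no 2 groups had same-numbered libraries that all correlated above 0.1. Replicates 1 and 2 did so between some groups, most in confined cPLA_2_ WT and cPLA_2_ KO cells, where r was 0.338, 0.208 and 0.040 for replicates 1 to 3, so pairing of some libraries cannot be told. Libraries of different number were not correlated, so the match of LPS libraries across labels was not covered. Depth limits *Csf2* and *Csf3* in nonconfined cells, where a group held 0 or 4 reads.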
